A study of Mus musculus with 2 samples.

Results

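The genes described here are 10 genes of bone morphogenetic protein (BMP) signalling: the ligand Bmp4, the receptor Bmpr1a, the signal-carrying Smad1 and Smad5, the inhibitory Smad6 and Smad7, and Id1, Id2, Id3 and Id4. They are 10 of the 18193 genes that the array reads through a probe set with a single gene symbol, and all 24 of their probe sets with such a symbol were used, of 34945 in all. They were picked on the difference between the 2 arrays of the study, since earlier results from these data had shown BMP response genes to be shifted. The differences below are therefore a description, and no test was made on them.

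Total RNA of 2 clones of Klf5-overexpressing mouse ES cells (E14, undifferentiated) was hybridised to 2 Affymetrix arrays, clone 2 to 1 array and clone 1 to the other. Both clones carry the overexpression and were kept in serum with LIF (leukaemia inhibitory factor), so they share every condition that the labels name. The labels give no day of culture or hybridisation, and the sources used here do not say how Klf5 is driven in these cells. The wild-type cells that the study sets them against were not analysed here, so no value below is an effect of Klf5.

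BMP ligands bind pairs of type I and type II serine/threonine kinase receptors. The type I receptor phosphorylates Smad1, Smad5 or Smad9, which join Smad4 and enter the nucleus, where Id genes and the inhibitory Smads are among the best known direct targets. Id proteins lack a DNA-binding region and take up the E proteins, the partners of basic helix-loop-helix factors, while Smad6 and Smad7 dampen the pathway at the receptor. In mouse ES cells kept with LIF, BMP signalling and the Id genes are known for holding back neural differentiation.

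Promoters are shown for the response genes, the Id genes and the inhibitory Smads, because these are the members on which the shift was first seen. RefSeq sequence (GRCm38.p6) was at hand for Id2, Id3, Id4 and Smad6 among them, and for 8 of the 10 members in all, in 10 windows. Id1 and Smad7 are named only. Each run below is written 5′ to 3′ on the strand of the gene and covers 254 bases, from 250 bases before the annotated start to the 4th base of the transcript. Capitals mark matches, on either strand, to GGCGCC, a GC-rich motif bound by BMP Smads, to CAGAC, the short Smad motif (GTCTG on the opposite strand), or to GTCTAGAC, its palindromic form.
Id2, chr12:25096089-25096342, minus strand: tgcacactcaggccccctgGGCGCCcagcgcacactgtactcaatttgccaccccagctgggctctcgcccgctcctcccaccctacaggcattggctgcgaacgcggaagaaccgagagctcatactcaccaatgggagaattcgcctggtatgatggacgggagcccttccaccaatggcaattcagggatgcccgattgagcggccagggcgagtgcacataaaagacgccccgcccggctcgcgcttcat
Id4, chr13:48260866-48261119, plus strand: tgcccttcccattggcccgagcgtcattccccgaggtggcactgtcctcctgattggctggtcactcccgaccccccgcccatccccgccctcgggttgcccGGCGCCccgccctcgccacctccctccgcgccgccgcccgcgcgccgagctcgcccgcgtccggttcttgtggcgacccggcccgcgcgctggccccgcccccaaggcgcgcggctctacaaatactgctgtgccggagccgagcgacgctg
Smad6, chr9:64022056-64022309, minus strand: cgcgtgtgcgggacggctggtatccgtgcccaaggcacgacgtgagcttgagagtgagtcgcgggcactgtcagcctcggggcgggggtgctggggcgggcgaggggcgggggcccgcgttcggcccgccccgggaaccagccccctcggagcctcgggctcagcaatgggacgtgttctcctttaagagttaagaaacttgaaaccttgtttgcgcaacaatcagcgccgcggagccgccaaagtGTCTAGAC
Id3, chr4:136143572-136143825, plus strand: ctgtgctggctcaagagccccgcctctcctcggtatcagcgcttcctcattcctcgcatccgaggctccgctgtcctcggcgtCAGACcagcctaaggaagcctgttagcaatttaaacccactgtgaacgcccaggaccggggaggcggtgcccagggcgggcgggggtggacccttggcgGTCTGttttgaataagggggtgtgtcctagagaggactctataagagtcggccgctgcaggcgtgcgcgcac

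Id2, Id3 and Id4 held a match to GGCGCC or CAGAC, while Smad6 held neither. Id2 held 1 GGCGCC from position -231 to -226 and Id4 1 from -148 to -143, counted from the start, with the base before it at -1. Smad6 held the palindrome GTCTAGAC across its start, from -4 to 4, a motif added after the sequences were seen. Id3 held CAGAC at -167 to -163 and, on the opposite strand, at -68 to -64. Over the whole windows of 300 bases, which run 50 bases into the transcript, GGCGCC stood in 11.9% of all 32851 promoter windows, CAGAC in 49.6% and GTCTAGAC in 0.213%.

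Whether the motifs go with the difference between the clones was not tested, and 8 members picked on that difference cannot tell. GGCGCC also stood in the Bmpr1a window and in 2 of the 3 windows of Smad5, genes with differences of 0.08 and 0.00. Those 2 windows of Smad5 overlap, and the GGCGCC in them is the same site. Bmp4 (0.34) and Smad1 (0.17) held none of these 3 motifs, and the probe sets of Id2 disagree in direction (0.36 and -0.26). CCNCNCCC, a motif of Klf and Sp factors, matched in 9 of the 10 windows, all but that of Smad1, and in 49.5% of all windows. The 2 overlapping windows of Smad5 share their matches, so the 9 are not separate. One of its 5 matches in Id4, at -144 to -137, overlaps the GGCGCC there. The 10 windows had 60.0 to 79.3% G and C, against a median of 52.7% over all windows.

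All 10 members were expressed in both clones by a background level set from genes of adult tissues, which was 6.28 in clone 2 and 6.32 in clone 1 on the log2 scale of the deposited signals. Over all genes measured, 51% (9284 of 18193) passed that level in both. By the probe set with the highest mean signal per gene, 8 members were higher in clone 2, Id3 was lower and Smad5 was equal. A gene or probe set that passed in either clone is called detected from here on, and of the 9808 detected genes 62.6% were higher in clone 2. The median difference, clone 2 minus clone 1, was 0.315 for the members and 0.08 for those 9808 genes.

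A difference of at least 0.30 on the log2 scale, which is 1.23-fold, served as the rule of size. By that rule 5 of the 10 members were higher in clone 2 (Bmp4, Smad6, Smad7, Id2 and Id4), against 20.1% of all detected genes. Id3 was the 1 member lower by as much, against 6.13% of genes. No member differed 2-fold, as 0.5% of genes did in either direction. The members were chosen by these differences, so nothing is read from their shares.

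**Figure D1:**
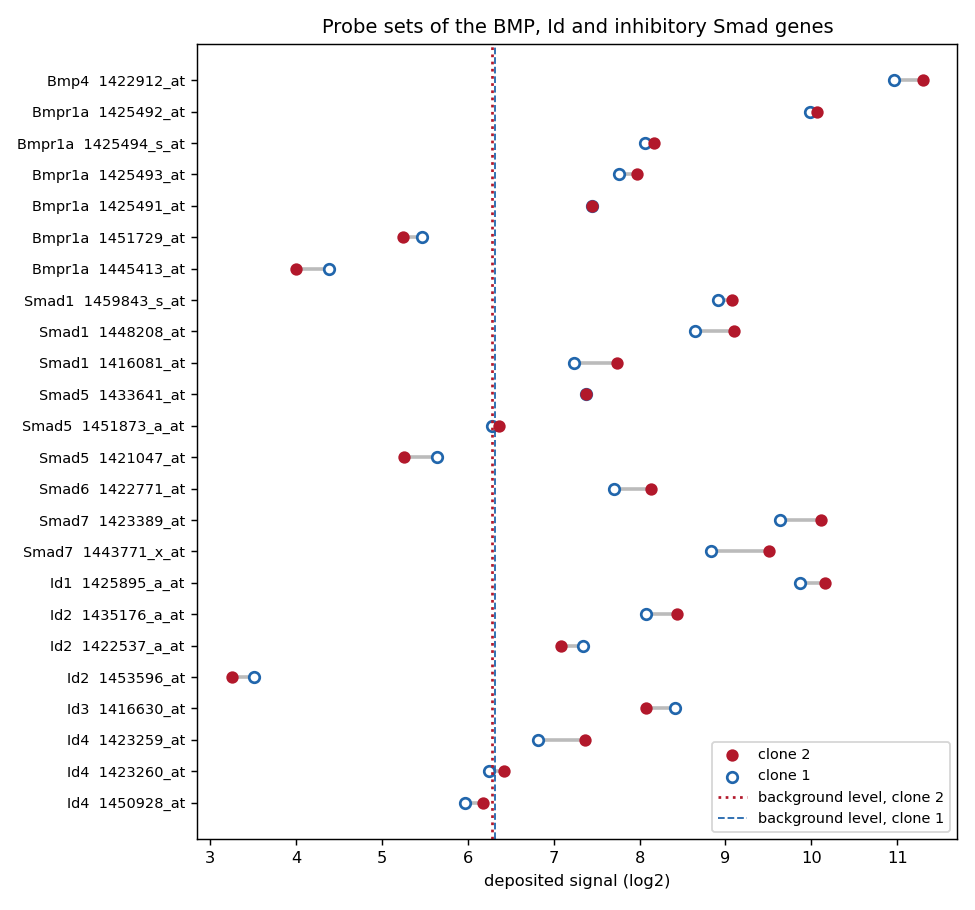
Deposited signal (log2, x axis) of all 24 member probe sets, with clone 2 as filled and clone 1 as open circles joined by a line, and the background level of each array as a vertical line. Of the 19 detected probe sets, 15 lie further right in clone 2 and 2 further left. By 1 probe set per gene, 62.6% of all detected genes were higher in clone 2. Where the clones are equal (1 probe set each of Bmpr1a and Smad5) the filled circle covers the open one.

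Bmp4, the 1 ligand among the members, had a signal of 11.30 in clone 2 and 10.96 in clone 1, and averaged 11.13 ± 0.24 (SD, n = 2). It was thus 1.27-fold higher in clone 2, on a single probe set. Bmpr1a, a type I receptor that binds Bmp4, was close to equal. Its strongest probe set gave 10.07 in clone 2 and 9.99 in clone 1, and the 4 of its 6 probe sets above background differed by 0.00 to 0.21.

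The Smads that carry the signal differed less than the inhibitory ones by the probe sets with the highest mean, but Smad1 depended on the probe set. Its strongest probe set gave 9.08 in clone 2 and 8.91 in clone 1, 0.17 apart. The next, of nearly the same mean signal, gave 9.10 in clone 2 and 8.64 in clone 1, and the third 7.74 in clone 2 and 7.23 in clone 1, differences of 0.46 and 0.51. All 3 were thus higher in clone 2, and 2 of them passed the rule of size that the representative one missed. Smad5, which acts alongside Smad1, had 7.37 in both clones. Another of its probe sets passed only in clone 2 (6.36 in clone 2 and 6.28 in clone 1), and the last was not above background.

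Both inhibitory Smads were higher in clone 2. Smad6, which acts mainly on BMP receptors, gave 8.13 in clone 2 and 7.70 in clone 1, and averaged 7.92 ± 0.30 (SD, n = 2), with a 1.35-fold difference on its single probe set. Smad7, which acts on BMP and on activin or TGF-beta receptors, gave 10.11 in clone 2 and 9.64 in clone 1, and averaged 9.88 ± 0.33 (SD, n = 2), with a 1.39-fold difference. Its other probe set gave 9.51 in clone 2 and 8.83 in clone 1. That difference, 0.68 or 1.6-fold, was the largest of the 19 detected member probe sets; the suffix of this probe set marks it as one that may bind other transcripts too.

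The 4 Id genes did not move as a block. Id4 gave 7.36 in clone 2 and 6.81 in clone 1, averaging 7.09 ± 0.39 (SD, n = 2), and its 1.46-fold difference was the largest of the members by the representative probe sets. A second Id4 probe set passed only in clone 2, at 6.42 in clone 2 and 6.24 in clone 1. With clone 1 raised to its background, that is at least 1.07-fold. The third was below background in both, at 6.17 in clone 2 and 5.97 in clone 1. The difference given for Id4 therefore rests on the 1 of its 3 probe sets that passed in both clones.

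Id1, the Id gene most widely used as a readout of BMP signalling, had 10.16 in clone 2 and 9.87 in clone 1. Its difference of 0.29 (1.22-fold) lay just under the rule of size, and its mean was 10.02 ± 0.21 (SD, n = 2). Id3 went the other way, with 8.07 in clone 2 and 8.41 in clone 1. It averaged 8.24 ± 0.24 (SD, n = 2) and was 1.27-fold higher in clone 1. Id1 and Id3 were each read by 1 probe set.

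Id2 gave opposite answers from its probe sets. The stronger gave 8.43 in clone 2 and 8.07 in clone 1, which is 0.36 higher in clone 2. The weaker one above background gave 7.08 in clone 2 and 7.34 in clone 1, with the sign turned (-0.26), and the third was not above background (3.25 in clone 2 and 3.51 in clone 1). The direction given for Id2 therefore rests on the choice of probe set, and with the mean of both its difference was 0.05. Of the 19 detected member probe sets, 8 were at least 0.30 higher in clone 2, against 21.9% of such probe sets on the array, and 1, that of Id3, was lower by as much.

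**Figure D2:**
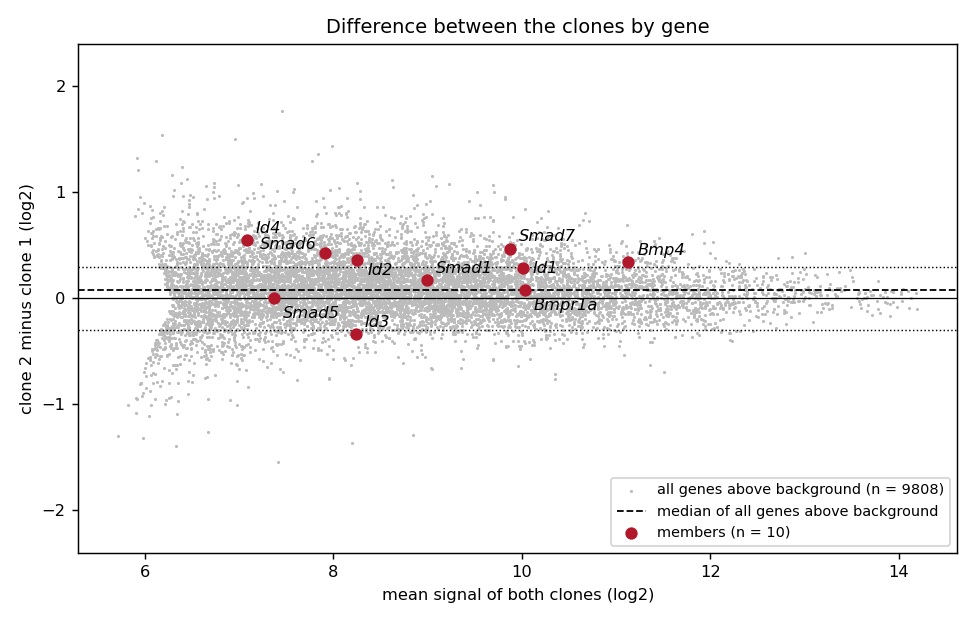
Difference between the clones (clone 2 minus clone 1, log2) against the mean signal of both (log2), for the 9808 detected genes in grey and the 10 members in red. The dashed line is the median of all genes, 0.08, and the dotted lines mark 0.30 in either direction; among the members Id4 lies highest at 0.55 and Id3 lowest at -0.34.

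The spread of the difference between the clones narrows with signal, so the same difference stands further out for a bright gene. Among genes with a mean signal between 7 and 8, the band of Id4, Smad6 and Smad5, the SD of the difference was 0.282 and 25.0% were at least 0.30 higher in clone 2. Between 9 and 10, the band of Smad7, the SD was 0.233 and the share 17.9%. Above 11, the band of Bmp4, the SD was 0.179 and the share 7.33%. The SD was 0.255 between 8 and 9 (Smad1, Id2 and Id3) and 0.217 between 10 and 11 (Bmpr1a and Id1). The differences of Bmp4 (0.34), Smad6 (0.43), Smad7 (0.47), Id1 (0.29), Id2 (0.36), Id3 (-0.34) and Id4 (0.55) were larger in size than the SD of their band. Those of Bmpr1a, Smad1 and Smad5 were smaller. The band medians, 0.03 to 0.12, were not taken off. The members were picked on these differences, so nothing is read from this.

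The difference between the clones also moved with the genomic length of genes. Its median over detected genes was 0.00 for those under 5 kb, 0.10 for those of 20 to 50 kb and 0.15 for those over 100 kb, and the share at least 0.30 higher in clone 2 was 12.1% in the shortest band and 29.2% in the longest. All 4 Id genes are short (1.16 to 4.91 kb), and Bmp4 spans 7.14 kb. Smad7 spans 28.6 kb, Smad1 61.0 kb and Smad6 69.0 kb. The members were also set against the median of their own length band, a comparison chosen after the data were seen. Id4 stayed at 0.55, Id2 at 0.36, Id1 at 0.29 and Id3 at -0.34. Smad6 came to 0.30, Smad7 to 0.37, Bmp4 to 0.29, Smad1 to 0.04, Bmpr1a to -0.05 and Smad5 to -0.1. By this measure 4 members were at least 0.30 higher in clone 2, against 12.5% of all detected genes. The part of length in the members' differences was not tested beyond this.

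**Figure D3:**
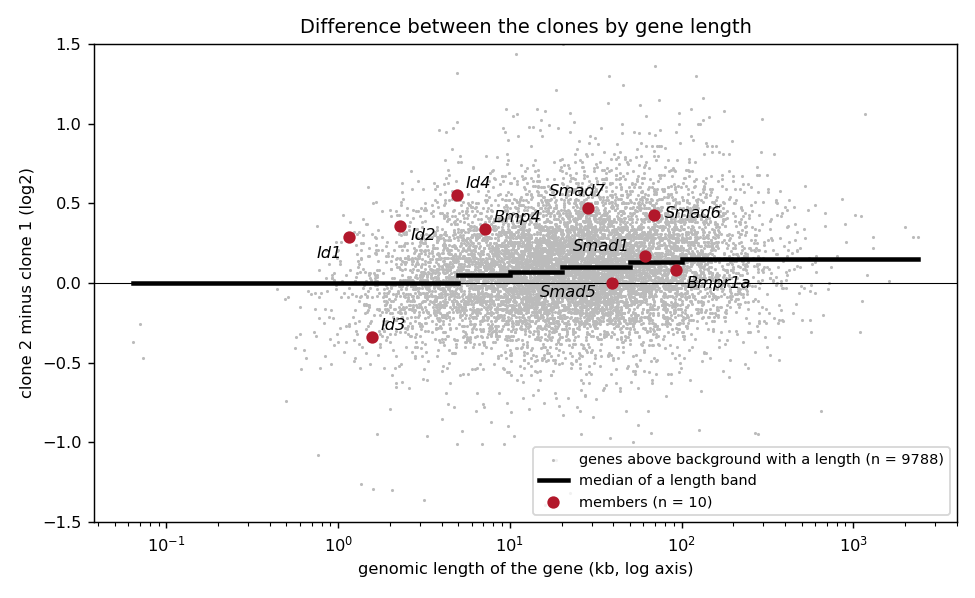
Difference between the clones (clone 2 minus clone 1, log2) against the genomic length of the gene (kb, log axis) for 9788 detected genes in grey, with the median of each of 6 length bands as a black bar and the 10 members in red. The bars climb from 0.00 to 0.15, the 4 Id genes lie at the short end, and 3 genes fall outside the y axis.

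The scaling of the 2 arrays to each other changed how many members passed the rule of size. The deposited columns had medians of 5.18 in clone 2 and 5.27 in clone 1. With equal medians the difference of the detected genes had a median of 0.17 and the members one of 0.405, with 6 members at least 0.30 higher in clone 2. Quantile normalization took the median of all genes to -0.01 and that of the members to 0.219, with 2 members, Smad7 (0.40) and Id4 (0.45), past the rule. The share of detected genes higher in clone 2, 62.6% as deposited, was 76.2% with equal medians, 47.5% after quantile and 50.8% after loess normalization. After loess 3 members passed, those 2 (0.39 and 0.46) and Smad6 (0.32). The share of detected genes past that rule, 20.1% as deposited, was 31.2% with equal medians, 11.9% after quantile and 13.0% after loess. Under each of these scalings Bmp4, Smad1, Smad6, Smad7, Id1, Id2 and Id4 were higher in clone 2 and Id3 lower, while Smad5 was 0.09 with equal medians and -0.12 and -0.10 with the other two.

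**Figure D4:**
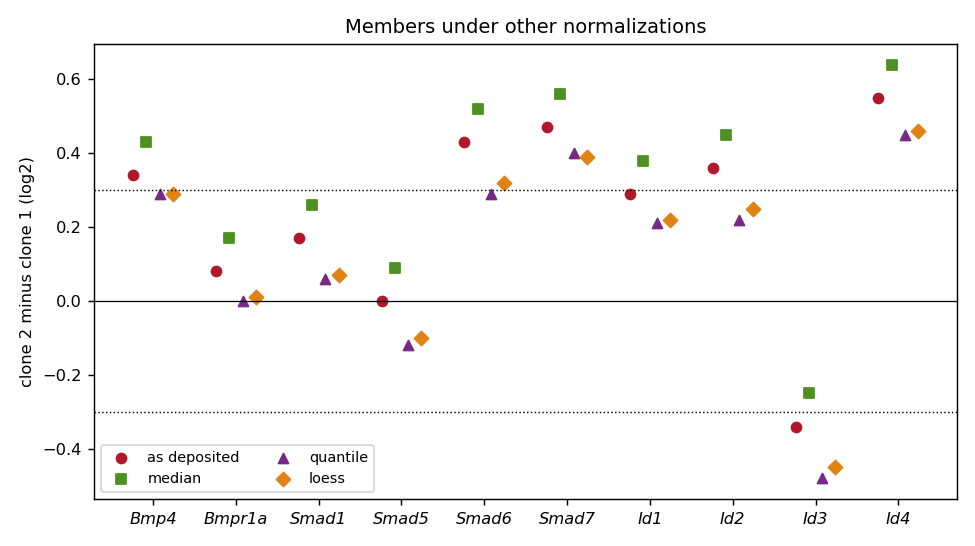
Difference between the clones (clone 2 minus clone 1, log2) of each member with the values as deposited and after median, quantile and loess normalization; the dotted lines mark 0.30 in either direction. Smad7 and Id4 stay above 0.30 in all 4, and Id3 lies below 0 in all 4.

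The rest of the pathway was read from 66 listed genes, of which 61 were measured and 28 detected. Their list, like the members, was drawn up with earlier results of these data known. Of the 28, 18 were higher in clone 2, 9 lower and 1 equal, while 62.6% of all detected genes were higher. By at least 0.30, 12 were higher and 0 lower, with a median difference of 0.185, against 20.1% and 6.13% of genes and a median of 0.08 over all detected genes. These shares describe 2 arrays and set no gene group apart. Under quantile normalization 7 of the 28 were at least 0.30 higher and 1 lower by as much. Relative to genes of the same length 7 were higher and 3 lower by as much. The shares of all detected genes at least 0.30 higher were then 11.9% and 12.5%.

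Bmp4 was nearly alone among the ligands. Of 11 other ligands measured, Gdf3, a Nodal-related factor of ES cells, was the 1 above background in both clones (9.25 in clone 2 and 9.31 in clone 1). Over all genes measured, 51% were above background in both. Gdf2 passed in clone 1 alone (6.17 in clone 2 and 6.44 in clone 1), at least 1.12-fold higher there. Bmp7 lay just under the level, at 6.12 in clone 2 and 6.24 in clone 1. Bmp2, the ligand nearest to Bmp4 in sequence, gave 3.65 in clone 2 and 4.01 in clone 1, well below it.

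Antagonists were largely below background too, 13 of the 15 measured, against 8385 of 18193 over all genes. Noggin (Nog), which binds BMP ligands outside the cell, gave 4.36 in clone 2 and 4.02 in clone 1. Chordin (Chrd) gave 6.03 in clone 2 and 5.74 in clone 1. The exceptions were Twsg1, which can either help or block BMP ligands, at 8.43 in clone 2 and 8.71 in clone 1, and the decoy receptor Bambi, at 7.77 in clone 2 and 7.67 in clone 1. A value below background says only that the probe set gave no signal above that of genes of other tissues.

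**Figure D5:**
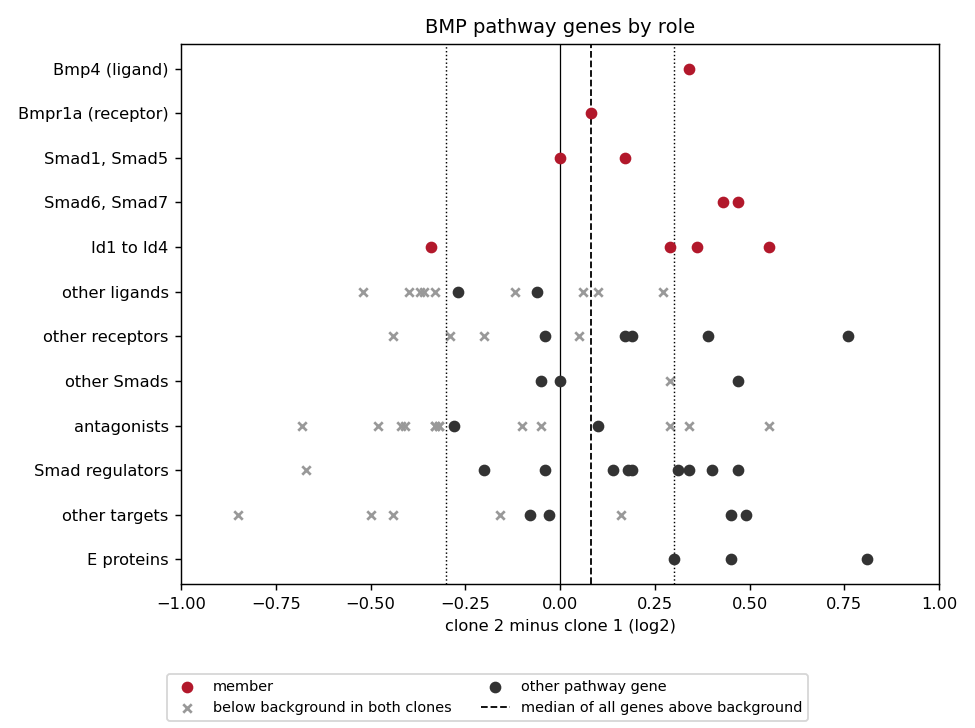
Difference between the clones (clone 2 minus clone 1, log2) of the 10 members (red) and the 61 other pathway genes measured (dark points detected, grey crosses below background in both clones), by role. The dashed line is the median of all detected genes, 0.08, and the dotted lines mark 0.30; the 3 E proteins lie at 0.30 or more, and most ligands and antagonists are crosses.

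Of 9 other receptors and co-receptors, 5 passed in both clones, against 51% of all genes measured. The type II receptor Bmpr2 was among them (8.47 in clone 2 and 8.30 in clone 1). Of these 5, 2 were at least 0.30 higher in clone 2, against 20.1% of all detected genes. Acvr1, a type I receptor, gave 7.95 in clone 2 and 7.19 in clone 1, which is 1.69-fold, but its second probe set above background gave 6.41 in clone 2 and 6.49 in clone 1. Acvr2b, a type II receptor, gave 7.65 in clone 2 and 7.26 in clone 1, and by its second probe set 6.41 in clone 2 and 6.44 in clone 1. In both genes the difference thus rested on 1 of 2 probe sets.

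The shared partner Smad4 showed the widest disagreement between probe sets among the 12 other pathway genes past the rule of size. Its strongest probe set gave 11.17 in clone 2 and 10.70 in clone 1, 0.47 higher in clone 2. The next gave 10.19 in clone 2 and 10.30 in clone 1, and the third 9.48 in clone 2 and 10.06 in clone 1, which differ by -0.58. No direction can be given for Smad4 from these. Smad9, the other Smad of the BMP branch, was not above background (4.46 in clone 2 and 4.17 in clone 1). Smad2 and Smad3, which carry Nodal and activin signals, differed by -0.05 and 0.00 by their strongest probe sets. For other pathway genes that did not pass the rule of size, weaker probe sets were not compared.

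Regulators of Smad activity were above background in both clones for 9 of 10 genes, against 51% of all genes measured. Of these 9, 4 were at least 0.30 higher in clone 2, against 20.1% of all detected genes. After quantile normalization, and also relative to genes of the same length, Tob1 was the 1 of these 4 still past that rule. Tob1, a repressor that binds BMP Smads, gave 10.29 in clone 2 and 9.82 in clone 1. Nedd4l, a ubiquitin ligase, gave 9.46 in clone 2 and 9.06 in clone 1, the phosphatase Ctdsp1 7.46 in clone 2 and 7.12 in clone 1, and the co-repressor Ski 8.67 in clone 2 and 8.36 in clone 1. Skil, the relative of Ski, differed by -0.20 and the ligase Smurf1 by -0.04.

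Targets other than the Id genes were mixed. Of 9 measured, 5 were below background in both clones, against 8385 of 18193 over all genes. Msx1 (6.06 in clone 2 and 5.90 in clone 1) was among these 5, and Msx2 and Gata2 differed by -0.08 and -0.03. Dusp9, an ERK phosphatase known as a BMP target in mouse ES cells, gave 10.16 in clone 2 and 9.67 in clone 1, and its other probe sets differed by 0.05 and 0.38. Tbx3, a T-box factor of naive ES cells, gave 9.45 in clone 2 and 9.0 in clone 1. Its other probe sets above background differed by 0.8 and 0.09.

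The partners that Id proteins bind were higher in clone 2 as well, all 3 by at least 0.30, against 20.1% of all detected genes. Tcf4 gave 8.42 in clone 2 and 7.61 in clone 1, 1.75-fold, and all 5 of its detected probe sets, 1 of them above background in clone 2 alone, were at least 0.45 higher in clone 2. Tcf3 gave 8.58 in clone 2 and 8.13 in clone 1, and Tcf12 9.13 in clone 2 and 8.83 in clone 1. A second probe set of Tcf12 was equal within 0.01. Tcf4 and Tcf12 are long genes (345 and 268 kb), and relative to genes of their length their differences were 0.66 and 0.15. Of the 12 pathway genes past the rule, 4 had a probe set above background that was lower in clone 2 (Acvr1, Acvr2b, Smad4 and Tcf12).

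Markers were read beside these values. All 10 ES cell markers passed in both clones, Pou5f1 (12.43 in clone 2 and 12.26 in clone 1) and Nanog (12.49 in clone 2 and 12.21 in clone 1) included, with a median difference of 0.17. Of markers of other cells, 2 of 10 fibroblast, 2 of 10 primitive endoderm, 4 of 10 trophoblast, 2 of 8 neurectoderm and 1 of 9 mesoderm genes were above background in both. Over all genes measured, that share was 51%. The 4 trophoblast genes were Tfap2c, Krt8, Eomes and Ascl2. Of primitive endoderm, Sox17 passed in clone 2 alone (6.81 in clone 2 and 6.31 in clone 1). Gata6 (6.28 in clone 2 and 6.53 in clone 1) and Ttr (6.06 in clone 2 and 6.50 in clone 1) passed in clone 1 alone. The fibroblast collagens Col1a1 (4.09 in clone 2 and 4.68 in clone 1) and Col3a1 (3.61 in clone 2 and 4.31 in clone 1) were below background in both clones. Thy1, also found on other cells, gave 7.66 in clone 2 and 7.54 in clone 1, and Pdgfrb, a growth factor receptor of fibroblasts, 7.16 in clone 2 and 7.33 in clone 1. The summed linear signal of these 5 lists differed between the clones by -0.41 (mesoderm) to 0.12 (neurectoderm) on the log2 scale, and the mesoderm value moved with Mesp1, which passed in clone 1 alone (6.04 in clone 2 and 7.30 in clone 1).

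Klf5 itself was higher in clone 2 as deposited, as were 62.6% of all detected genes. After quantile normalization that share was 47.5%, and the value of Klf5 after it is not given here. Its strongest probe set gave 12.25 in clone 2 and 11.61 in clone 1, a 1.56-fold difference, and its second 7.26 in clone 2 and 6.97 in clone 1. The third was not above background (4.77 in clone 2 and 4.81 in clone 1). A link between Klf5 and the members was not tested. In bulk RNA a lower level per cell and fewer expressing cells cannot be told apart. With 1 array per clone, the clone, its Klf5 level, its culture and its array cannot be told apart either.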

How the data were processed

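The authors deposited log2 signals per probe set for both arrays. The submitters' processing notes name Transcriptome Analysis Console. How probes were summarised, corrected and normalized, and with which other arrays, the sources used here do not say, nor the log base; base 2 was taken from the range, 2.21 to 14.38, and every fold rests on it. Of 45037 probe sets, 34945 had 1 gene symbol in the platform annotation, 932 several and 9160 are unnamed here; none with several symbols names a member. The member symbols all matched the RefSeq gene table (10 of 10), which gave gene lengths.

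Values were used as deposited (pandas 2.3.3, loess by statsmodels 0.14.6 with a span of 0.3). A gene is represented by the probe set with the highest mean of both arrays. Background is the 95th percentile, per array, of 95 probe sets of 58 measured genes of adult tissues (64 listed), 3 of which passed it in both clones. Below it in 1 clone, a fold is a bound against the level there. Intensities and detection calls were not used here. The number of arrays sets the precision.

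With 1 array per clone no p-value was computed; the SDs given span 2 clones. Both clones form 1 group, numbered as in the sample titles. The members, gene lists, background genes and rules of size were chosen with earlier results of these data known. The members are all named. Of each other pathway list the genes above background with a difference of at least 0.30 are named, or else those with the highest mean signal, up to 3. Marker lists are given as counts with a few defining genes named. Further genes, such as Bmp2, Nog, Msx1, Smurf1 or Sox17, were named after their values were seen. The procedure was tested on simulated data, with planted differences larger than the rule of size and only in brighter genes. The added noise was smaller than the spread between the clones, so that test does not bear on calls near 0.30. Alternatives were 3 normalizations, 3 background levels, no background, the mean over probe sets, leaving out probe sets of suffix _x_at, _s_at or _a_at, each clone alone and, chosen after the data were seen, the difference relative to genes of the same length.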

Additional observations from a re-analysis of the deposited data

How the results depend on the processing

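The count of members at least 0.30 higher in clone 2, 5 as deposited, was 2 after quantile and 3 after loess normalization, and 4 to 6 under the other alternatives. The share of all genes past that rule, 20.1% as deposited, was 11.9% after quantile and 13.0% after loess normalization. Under the other alternatives it was 12.5% to 31.2%. The count of other pathway genes past that rule, 12 as deposited, was 7 after quantile normalization and 7 relative to genes of the same length (chosen after the data were seen). Their median turned to -0.04 without a background filter, where 33 genes below background enter. The median of the members stayed between 0.219 and 0.405 and the count of members higher in clone 2 between 6 and 9; the 6 came from leaving out probe sets of suffix _x_at, _s_at or _a_at, which kept 8 members. All 10 members were above background in each clone alone and in both, with background at the 90th percentile or from 83 sensory receptor probe sets; at the 99th percentile Id4 passed in clone 2 alone. Of single members, 2 moved by more than the SD of all genes, 0.273: Id2 to 0.05 with the mean over its probe sets, and Smad1 to 0.46 without its _s_at probe set. No paired analysis was possible because both clones form 1 group. The 2 arrays limit every value.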
